A study of Mus musculus with 4 samples.

Results

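The genes described here are 10 factors of the signalling pathway that marks unsynapsed chromosomes in meiosis: Atr, Atrip, Topbp1, Brca1, Bard1, Mdc1, H2ax, Rnf8, Rnf168 and Scml2. They were chosen by symbol for their known roles, with earlier results of these data known. All 10 have a row among the 50763 genes of the count table. RNA with a poly(A) tail was sequenced from pachytene spermatocytes purified from mouse testis, the cells of the long stage of meiotic prophase in which homologous chromosomes are paired along their length. There were 2 libraries of wild-type (WT) mice and 2 of Hsf5 knockdown mice. Hsf5 codes for a heat shock factor found in testis, and the labels give no strain, age or method of knockdown. The libraries held 33287428 to 42479164 counts. Nothing in the labels says which animals or pools gave each library, so each p-value rests on the spread among these 4 libraries alone.

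In a male germ cell the X and Y have only a short stretch in common, and most of their length stays unpaired at pachytene. BRCA1, with its partner BARD1, gathers on the unpaired axes and helps to bring in the kinase ATR, which works with ATRIP and is switched on by TOPBP1. ATR phosphorylates the histone variant H2AX, and MDC1 binds that mark and carries the kinase outward from the axis into the chromatin loops. The ubiquitin ligases RNF8 and RNF168 act after MDC1, and the Polycomb protein SCML2 is a germ line factor that gathers on the sex chromosomes. The outcome is transcriptional silencing of the X and Y.

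The comparison asks which of these genes change in level when Hsf5 is knocked down. Of the 8 that could be tested, Scml2, Brca1 and Topbp1 rose, Rnf168 fell, and Atr, Bard1, Mdc1 and Rnf8 did not pass (edgeR quasi-likelihood test, adjusted p below 0.05 over all 23594 genes tested). Atrip and H2ax had no count in any library. Across all genes tested, 60.9% were called in either direction, 27.4% as higher and 33.5% as lower. Among genes with a mean of at least 10 CPM (counts scaled to library size, here with TMM factors) the shares were 63.3%, 31.5% and 31.8%. Those of the 8 members were 37.5% higher and 12.5% lower, and nothing about the members as a set is read from them. The median log2 fold change of the 8 genes was 0.02, and that of all genes was -0.12.

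The targeted gene was read first. Hsf5 had 586 and 449 CPM in WT and 287 and 238 CPM in the knockdown. Transcript remained in each knockdown library, at levels below both of WT (log2 fold change -0.98, SE 0.31; edgeR, adjusted p = 0.0217). This call was lost with library totals only (-0.55; edgeR, adjusted p = 0.115), without WT replicate 1 (-0.79, adjusted p = 0.219) and without WT replicate 2 (-1.13, adjusted p = 0.0725).

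The knockdown libraries also differed from WT in the markers of cell stages and of other cell types. Of 12 markers of mid and late pachytene 12 fell, and their summed level went from 13500 and 13300 CPM to 2800 and 2280 CPM. The markers of spermatogonia (8 of 10 rose) summed to 51.8 and 68.3 CPM in WT and 676 and 624 CPM in the knockdown, and those of leptotene and zygotene (8 of 10 rose, 1 fell) to 230 and 169 CPM and 577 and 400 CPM. Sertoli cell markers (10 of 10 rose) summed to 163 and 417 CPM in WT and 3820 and 4440 CPM in the knockdown, and Leydig cell markers (6 of 6 rose) to 105 and 714 CPM and 1230 and 2480 CPM. None of the Sertoli or Leydig markers was at 0 in either group. Of 12 genes of S phase and the mitotic cycle 7 rose and none fell, with sums of 880 and 890 CPM in WT and 1750 and 1420 CPM in the knockdown. The lists of myoid cells, of macrophages and blood, and of endothelium were small. Myoid cell markers (3 of 4 tested rose) summed to 3.79 and 6.33 CPM in WT and 96.4 and 23.3 CPM after knockdown. Macrophage and blood markers (6 of 7 rose) summed to 9.03 and 9.84 CPM in WT and 119 and 42.9 CPM after knockdown. Endothelial markers (2 of 5 rose) summed to 10.4 and 17.9 CPM in WT and 17.8 and 44.3 CPM after knockdown, where replicate 1 lay within the WT range. Spermatid markers (10 of 10 fell) summed to 3370 and 1620 CPM in WT and 23.3 and 14.6 CPM in the knockdown, where Prm2 was at 0. The part of these differences in the results below was not tested, and in such libraries a change in the make-up of the cells and a change of RNA per cell cannot be told apart.

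The promoters of the genes that moved are shown with that of Bard1, which did not pass although its protein works bound to BRCA1. Each is the 250 bases before the transcription start listed in RefSeq (build GRCm38.p6, an older build than the mm39 of the counts), 5′ to 3′ on the strand of the gene, with capitals where a searched motif matched.
Scml2, chrX:161162500-161162749, plus strand: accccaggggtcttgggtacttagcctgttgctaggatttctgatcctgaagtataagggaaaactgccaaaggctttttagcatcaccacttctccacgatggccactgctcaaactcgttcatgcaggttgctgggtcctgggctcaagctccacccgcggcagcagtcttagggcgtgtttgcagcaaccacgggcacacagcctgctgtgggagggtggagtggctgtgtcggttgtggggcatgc
Brca1, chr11:101551956-101552205, minus strand: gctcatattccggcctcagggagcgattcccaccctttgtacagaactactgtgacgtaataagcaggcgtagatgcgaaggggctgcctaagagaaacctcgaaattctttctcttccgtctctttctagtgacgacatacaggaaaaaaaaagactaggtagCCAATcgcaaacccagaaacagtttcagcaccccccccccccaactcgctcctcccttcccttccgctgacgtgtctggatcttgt
Bard1, chr1:71102973-71103222, minus strand: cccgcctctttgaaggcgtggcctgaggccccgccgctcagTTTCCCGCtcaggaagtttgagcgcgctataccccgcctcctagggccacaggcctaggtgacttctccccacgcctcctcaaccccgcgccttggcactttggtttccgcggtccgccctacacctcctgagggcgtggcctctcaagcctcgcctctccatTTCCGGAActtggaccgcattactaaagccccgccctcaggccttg
Topbp1, chr9:103305077-103305326, plus strand: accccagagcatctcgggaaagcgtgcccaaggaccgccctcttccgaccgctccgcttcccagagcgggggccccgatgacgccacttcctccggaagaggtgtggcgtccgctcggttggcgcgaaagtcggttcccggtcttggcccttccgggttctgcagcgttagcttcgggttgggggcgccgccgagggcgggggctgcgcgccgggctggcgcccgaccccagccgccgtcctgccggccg
Rnf168, chr16:32277211-32277460, plus strand: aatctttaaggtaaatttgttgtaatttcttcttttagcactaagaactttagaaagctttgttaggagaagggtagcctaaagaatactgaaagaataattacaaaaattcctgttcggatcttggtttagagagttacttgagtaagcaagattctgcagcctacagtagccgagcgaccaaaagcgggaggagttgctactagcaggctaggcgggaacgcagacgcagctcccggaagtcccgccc

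Motifs were searched on both strands of the 300 bases around the start (250 before, 50 after) for the 9 members in the table of promoters, which lacks H2ax. Heat shock factors bind repeats of nGAAn units. The facing pair GAANNTTC was in none of the 9, against 7.86% of the 32851 promoters of the table, and the pair TTCNNGAA was in Bard1 alone, as TTCCGGAA, against 8.52%. The 2 forms can overlap each other where units run on. An E2F motif of S phase genes, TTTCCCGC, was in Bard1 and Mdc1, against 1.07% of all promoters, while the second form TTTGGCGC (0.514%) and the cAMP response element TGACGTCA (1.79%) were in none. The MYB motif TAACNG was in Atrip and Mdc1, against 23.3%, and CCAAT was in Atrip, Brca1, Mdc1 and Rnf8, against 37.4%. None of these motifs was found in Scml2, Topbp1 or Rnf168, which says only that these letters are not in this window. The printed windows differ in base composition. Topbp1 has 33 CpG pairs and 73.2% G and C, Rnf168 has 9 and 43.6%, and Scml2 has 7 and 56.8%, while the median over all promoters is 6 CpG pairs and 52.4%.

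The kinase gene Atr, of the sensor group, had 650 and 881 CPM in WT and 560 and 610 CPM in the knockdown. Both knockdown libraries were below both WT libraries, but the WT libraries differed from each other by more than the lower of them differed from the knockdown (log2 fold change -0.39, SE 0.32; edgeR, adjusted p = 0.32). The sign of this difference rested on the scaling. With library totals only it was 0.05, and with the libraries scaled on synaptonemal complex and cohesin genes Atr passed as lower (-1.18; edgeR, adjusted p = 0.0459). In GENCODE M21, 3.07% of the exon bases of Atr are shared with 1700065D16Rik on the opposite strand, a gene with 461 and 247 counts in WT and 32 and 26 in the knockdown. Those counts are few beside the 21819 to 26429 of Atr.

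Topbp1, the activator of ATR, rose. It had 119 and 170 CPM in WT and 281 and 284 CPM in the knockdown, so the groups did not overlap and the knockdown libraries were nearly equal (log2 fold change 0.97, SE 0.31, or 1.96-fold; edgeR, adjusted p = 0.0206). The call was lost without WT replicate 1 (0.72; edgeR, adjusted p = 0.29), without WT replicate 2 (1.27, adjusted p = 0.0553) and under the synaptonemal complex and cohesin scaling (0.15, adjusted p = 0.811).

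Atrip, whose product holds ATR on single-stranded DNA, was listed at 0 in all 4 libraries. The floor of 3 counts corresponds to 0.0635 to 0.104 CPM per library. Trex1, which follows Atrip on the same strand and shares 1147 of its exon bases in GENCODE M21, was also at 0 in all 4. The sources used here do not give how reads in overlapping genes were treated, and the 0 is not read as a level of transcript. Of 20029 protein-coding genes in the table, 1539 (7.68%) had no count in any library.

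The axis group was divided in its calls, and whether the changes of Brca1 and Bard1 differ was not tested. Brca1, the gene of the ubiquitin ligase that gathers on unpaired axes, had 12.7 and 14.8 CPM in WT and 41.1 and 52.8 CPM in the knockdown. The lowest knockdown value was well above the highest WT value (log2 fold change 1.77, SE 0.35, or 3.42-fold; edgeR, adjusted p = 0.00198). The call held in 10 of 11 alternatives, with values from 1.58 to 2.22, and was lost with scaling on synaptonemal complex and cohesin genes (1.03; edgeR, adjusted p = 0.199). Bard1, whose product pairs with BRCA1 through their RING domains, stood at 34.8 and 38.0 CPM in WT and 33.0 and 35.2 CPM in the knockdown. These groups overlapped, and the difference was smaller than its error (-0.09, SE 0.31; edgeR, adjusted p = 0.812).

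**Figure D1:**
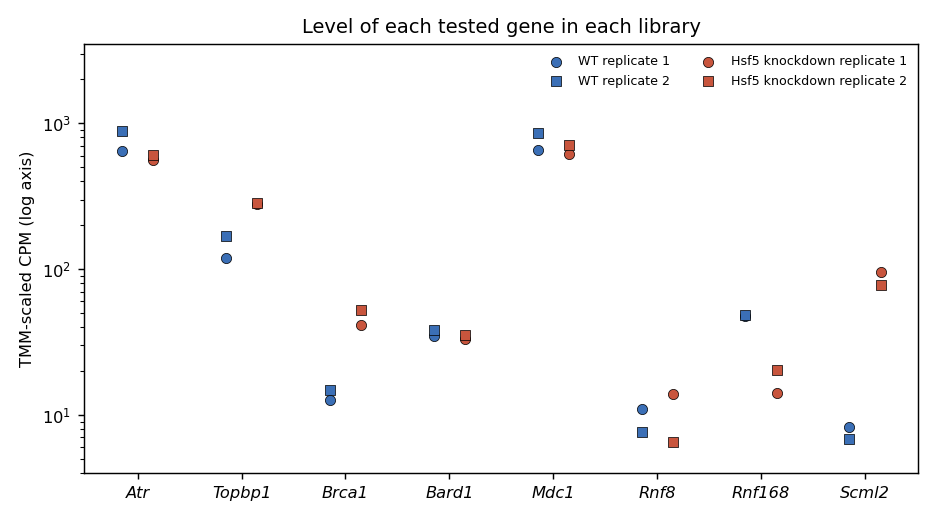
TMM-scaled CPM (log axis) of the 8 genes with counts in each of the 4 libraries, blue for WT and red for the Hsf5 knockdown, circles for replicate 1 and squares for replicate 2. Scml2 and Brca1 stand higher in both knockdown libraries and Rnf168 lower, while the groups of Bard1, Mdc1 and Rnf8 overlap.

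The groups did not overlap for 5 of the 8 genes (Atr, Topbp1, Brca1, Rnf168 and Scml2), against 82.7% of all genes tested. In the plot of CPM by library the replicates of a group lie closest for Rnf168 in WT and for Topbp1 in the knockdown, and farthest apart for Rnf8 in the knockdown.

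Of the spreading factors, Mdc1 had 657 and 853 CPM in WT and 619 and 708 CPM in the knockdown. Its groups overlapped, with the lower WT library inside the knockdown range (log2 fold change -0.19, SE 0.32; edgeR, adjusted p = 0.637). The sign turned with library totals only (0.26) and without WT replicate 2 (0.04), and neither value passed. H2ax, the gene of the histone variant that ATR phosphorylates, was listed at 0 in all 4 libraries, with the same floor as Atrip. In GENCODE M21 10.2% of its exon bases are shared with a microRNA gene on the opposite strand. Transcripts of histone genes can end without a poly(A) tail, and this selection does not retain such ends. Whether this, or the way reads were counted, has a part in the 0 was not tested. The 0 is not read as absence of H2ax transcript.

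The ubiquitin ligases also differed in their calls, and whether their changes differ was not tested. Rnf168, whose product extends histone ubiquitin marks after RNF8, was the member that fell. It had 48.0 and 48.5 CPM in WT and 14.2 and 20.4 CPM in the knockdown. The WT libraries were almost equal and both knockdown libraries lay far below them (log2 fold change -1.48, SE 0.35, or 2.79-fold lower; edgeR, adjusted p = 0.005). The call held in all 11 alternatives, with log2 fold changes from -2.19 to -1.03. Rnf8 was low and variable, at 10.9 and 7.68 CPM in WT and 14.0 and 6.52 CPM in the knockdown, and the knockdown range enclosed that of WT (0.14, SE 0.49; edgeR, adjusted p = 0.821). In GENCODE M21 13.2% of its exon bases are shared with Gm28043 on the same strand, a gene with 3 and 4 counts in WT and 21 and 16 in the knockdown, against 221 to 660 for Rnf8.

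Scml2 is the X-linked member and had the largest fold change of the 8. It had 8.26 and 6.88 CPM in WT and 95.0 and 77.3 CPM in the knockdown, so the groups were far apart (log2 fold change 3.51, SE 0.34, or 11.4-fold; edgeR, adjusted p = 5.44e-05). The call held in all 11 alternatives, with values from 2.69 to 3.94. Here that value is set beside those of other X-linked genes and of autosomal genes. Whether the chromosome or the make-up of the cells has a part in it was not tested. The 821 X-linked genes tested had a median log2 fold change of 2.89 and 67.8% of them rose, whereas the 21626 autosomal genes had a median of -0.15 and 26.5% rose. The X-linked genes did not all move 1 way, and a smaller group lay far below 0. Between -9.0 and -8.5 lay 2.07% of them, against 0.846% of autosomal genes. Of the X-linked genes 240 had a larger fold change than Scml2 and 70.6% a smaller one, so it lay within the upper part of the X-linked range. Of the autosomal genes 94.7% had a smaller one.

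**Figure D2:**
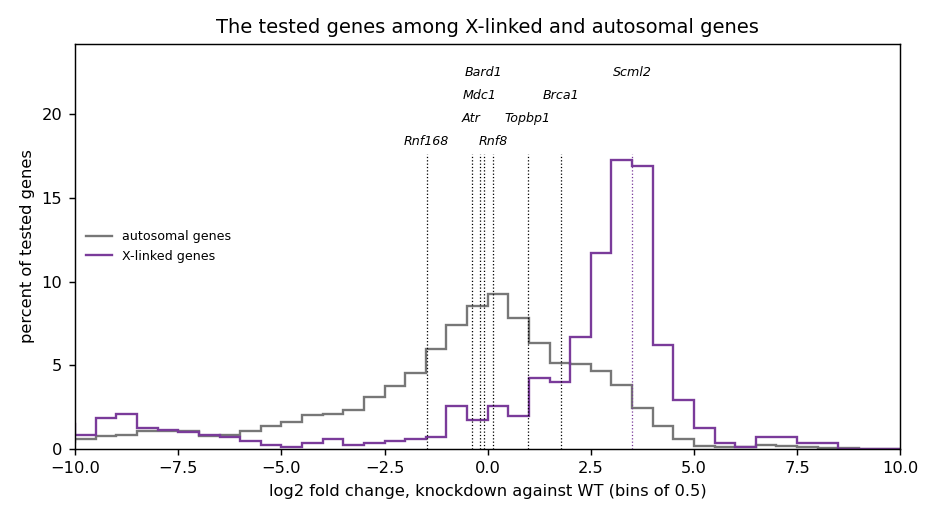
Share of tested genes (percent) in bins of 0.5 of the log2 fold change, knockdown against WT, for X-linked (purple) and autosomal (grey) genes, drawn from -10 to 10, with dotted lines at the 8 tested members. Scml2, at 3.51, stands within the main body of the X-linked genes, whose median is 2.89, and the other members, all autosomal, lie between -1.48 and 1.77.

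**Figure D3:**
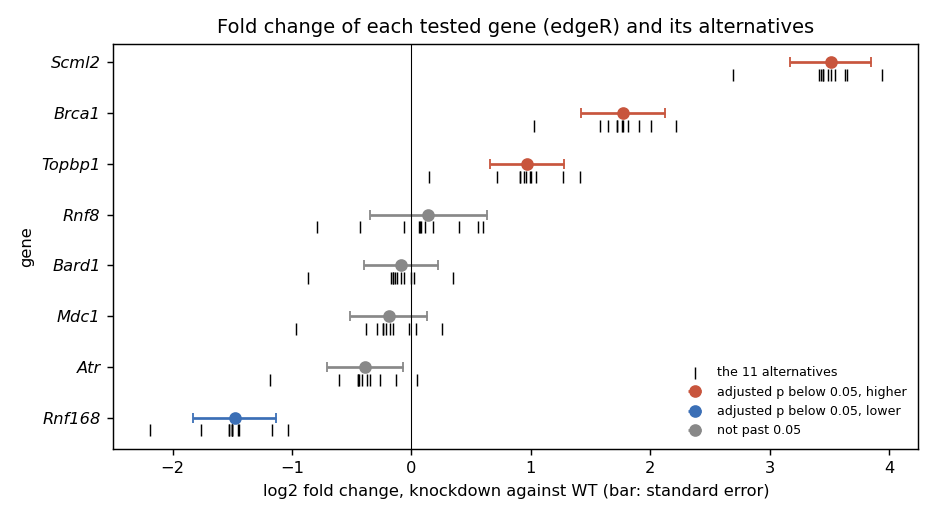
Log2 fold change of the 8 tested genes, knockdown against WT, with its standard error (edgeR), coloured by call, and below each the values under the 11 alternative settings as ticks. All ticks of Scml2 and Brca1 lie above 0 and all of Rnf168 below 0, while those of Atr, Mdc1, Bard1 and Rnf8 lie on both sides.

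The plot of fold changes puts the 3 genes that rose and the 1 that fell beside their alternatives. Topbp1 has the ticks nearest to 0 among the called genes, down to 0.15. Those of Bard1 ran from -0.87 to 0.35 and those of Mdc1 from -0.97 to 0.26.

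To compare levels between genes, CPM was divided by the length of the longest GENCODE M21 transcript in kilobases. In WT the order was Mdc1 (89.6 and 116 CPM per kb), Atr (80.3 and 109), Topbp1 (22.7 and 32.5), Rnf168 (10.8 and 10.9), Bard1 (6.15 and 6.72), and then Brca1 (1.93 and 2.25), Rnf8 (2.02 and 1.42) and Scml2 (1.70 and 1.42). Mdc1 and Atr overlapped across the libraries, as did Brca1 with Rnf8 and Rnf8 with Scml2, and the other neighbours did not. Mdc1 stood above 94.5% and 96.6% of the 19752 genes with a length in the WT libraries, and Atr above 93.8% and 96.3%. By contrast Brca1 stood above 43.2% and 45.0%. In the knockdown libraries the order was Mdc1 (84.4 and 96.5), Atr (69.1 and 75.3), Topbp1 (53.7 and 54.3), Scml2 (19.6 and 16.0), Brca1 (6.26 and 8.03), Bard1 (5.83 and 6.23), Rnf168 (3.18 and 4.58) and Rnf8 (2.59 and 1.21). No neighbours overlapped there, with the narrowest gap between Brca1 and Bard1. Scml2 thus moved from the foot of the order to the fourth place and Rnf168 from the fourth place to the last but one.

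Ratios between partners do not depend on how the libraries are scaled. The ratio of Brca1 to Bard1 per kb was 0.313 and 0.335 in WT, and 1.07 and 1.29 in the knockdown. Brca1 transcript was thus the scarcer partner in WT and slightly above Bard1 in the knockdown, although with coding length in place of transcript length the mean ratio in the knockdown was 0.579. The ratio of Atr to Topbp1 was 3.53 and 3.35 in WT and 1.29 and 1.39 in the knockdown, a difference of -1.36 on the log2 scale, with little spread within each group. The ratio of Rnf168 to Rnf8 was 5.33 and 7.64 in WT and 1.23 and 3.80 in the knockdown, and its spread came mostly from Rnf8. In all of these pairs the libraries of one group lay on the same side of those of the other. Such separation was common, since the groups did not overlap for 82.7% of all single genes tested. The share among other pairs of genes was not computed. With 2 libraries a group no exact permutation test can reach 0.05, and no test was made. Pairs with Atrip or H2ax gave no ratio.

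**Figure D4:**
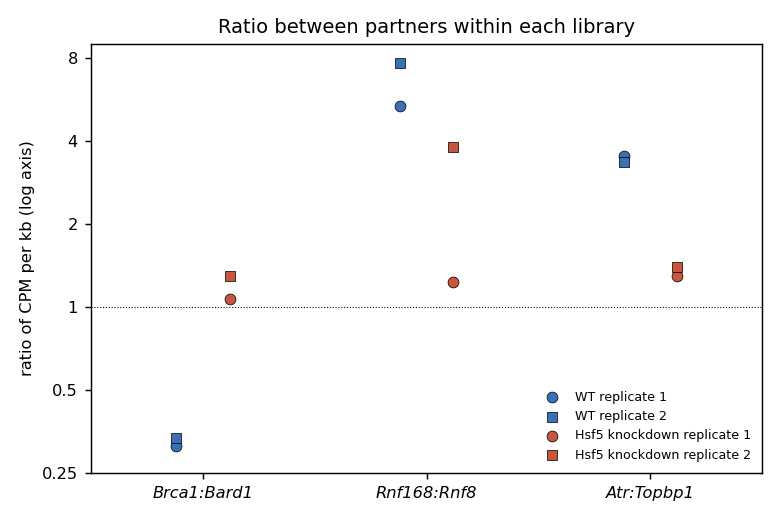
Ratio of CPM per kb (log axis) between partner genes in each of the 4 libraries, blue for WT and red for the Hsf5 knockdown, with a dotted line at equal levels. The ratio of Brca1 to Bard1 is 0.313 and 0.335 in WT and above 1 in both knockdown libraries, and the ratios of Atr to Topbp1 and of Rnf168 to Rnf8 are lower in both knockdown libraries.

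The genes most alike each called member across the 4 libraries were found by the Euclidean distance between centred log2(CPM + 0.5) values, among 11653 named genes with a mean of at least 5 CPM. Nearest to Scml2 were Tex11 (distance 0.0786) and Hccs (0.0988), which are X-linked as well. Nearest to Brca1 were Alpk1 (0.0607) and Tmem87b (0.0672), nearest to Topbp1 Rprd1a (0.0492) and Traf7 (0.0605), and nearest to Rnf168 Reep6 (0.0499) and Pisd-ps3 (0.0693). With 4 libraries in 2 groups, such likeness rests mostly on the size of the group difference.

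The rest of the pathway was read from 7 lists with 102 genes, all tested, of which 29 rose (28.4%), 19 fell (18.6%) and 54 did not pass, with a median log2 fold change of 0.32. These shares stand beside 27.4% higher, 33.5% lower and a median of -0.12 for all genes tested, so the share that rose was near that of all genes. Up to 3 called genes with the smallest p in each list were named by rule, and every other pathway gene named below, whether it passed or not, was chosen after its values were seen. Scaling moved this balance. With library totals only 43 rose and 11 fell. When the scaling rested on synaptonemal complex and cohesin genes 5 rose and 30 fell. Of the 48 called genes, 15 kept their call in every alternative in which they were tested: Ago4, Atm, Brap, Brcc3, Brme1, Cbx2, Fance, Fancg, Kdm6a, L3mbtl1, Pias2, Pias4, Rpa1, Slx4 and Usp1.

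Upstream, the HORMA domain genes Hormad1 and Hormad2, whose products mark unsynapsed axes and are needed for ATR to gather there, rose. Hormad2 had 40.6 and 26.5 CPM in WT and 139 and 70.1 CPM after knockdown. Hormad1 had 144 and 108 CPM in WT and 401 and 195 CPM after knockdown, and for both genes knockdown replicate 2 was well below knockdown replicate 1. The call of Hormad1 was lost without WT replicate 2 (log2 fold change 1.07) and without knockdown replicate 1 (0.71). With scaling on synaptonemal complex and cohesin genes neither Hormad1 (0.31; edgeR, adjusted p = 0.567) nor Hormad2 (0.73, adjusted p = 0.251) passed. Brme1, a partner of the BRCA2 machinery placed in the same list of 6, fell from 107 and 101 CPM to 43.8 and 34.3 CPM. The axis gene Sycp3 (0.87), Sycp2 (-0.51) and Hsf2bp (-0.72) did not pass.

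Around ATR, 5 of 17 genes of the RAD9-RAD1-HUS1 clamp and of ATR activation rose (Clspn, Rpa2, Tipin, Timeless and Chek1) and 2 fell (Rpa1 and Cdc25a). Clspn, the adaptor through which ATR activates CHEK1, went from 9.75 and 11.1 CPM to 47.5 and 51.7 CPM. The subunits of RPA, the protein that coats single-stranded DNA and draws in ATR, moved apart. Rpa1 had 434 and 407 CPM in WT and 89.2 and 73.9 CPM after knockdown. Rpa2 had 31.0 and 27.7 CPM in WT and 146 and 74.6 CPM after knockdown, while Rpa3 had a log2 fold change of 1.21 and did not pass. Without WT replicate 1, WT replicate 2 or knockdown replicate 1, 1 gene of the list was lower in place of 2. With scaling on synaptonemal complex and cohesin genes no gene of the list was higher. The calls of Chek1 and Cdc25a were each lost in 4 of 11 alternatives. None of the clamp genes Rad9a (-0.82), Rad9b (0.53), Hus1 (0.47), Hus1b (0.15) and Rad1 (0.40) passed.

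In the list of the sister kinase ATM 4 of 10 rose (Atm, Chek2, Rad50 and Prkdc) and Nbn fell. Atm went from 7.63 and 15.6 CPM to 51.5 and 84.7 CPM, with both knockdown libraries far above WT, while Atr did not pass. Whether the changes of Atm and Atr differ was not tested. Chek2 went from 1.58 and 1.25 CPM to 7.33 and 5.94 CPM. Rad50, of the complex that senses DNA ends with Nbn, rose by 1.08 (SE 0.30) on the log2 scale. It no longer passed when WT replicate 1 (edgeR, adjusted p = 0.0951), WT replicate 2 (0.0634) or knockdown replicate 2 (0.0545) was left out. Nbn had 48.4 and 36.8 CPM in WT and 20.4 and 16.8 CPM in the knockdown. Without WT replicate 1 the list had 2 genes higher and none lower, and without knockdown replicate 2 it also had 2 higher.

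Among 12 genes whose products bind BRCA1 or work near it, Uimc1, Brcc3, Brip1 and Rnf4 rose and Brap fell. The call of Rnf4 was lost in 4 of 11 alternatives. With scaling on synaptonemal complex and cohesin genes it was at 0.08 (edgeR, adjusted p = 0.904), and 1 gene of the list was higher. Uimc1, which brings BRCA1 to ubiquitin marks, went from 28.8 and 31.2 CPM to 137 and 98.9 CPM. Brcc3, an X-linked deubiquitinase of the same complex, went from 1.19 and 1.46 CPM to 8.41 and 10.5 CPM. Brap, a cytoplasmic ligase known for binding BRCA1, had 330 and 383 CPM in WT and 110 and 99.4 CPM in the knockdown. Brca2 (-0.14), Palb2 (0.54) and Abraxas1 (0.88) did not pass.

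**Figure D5:**
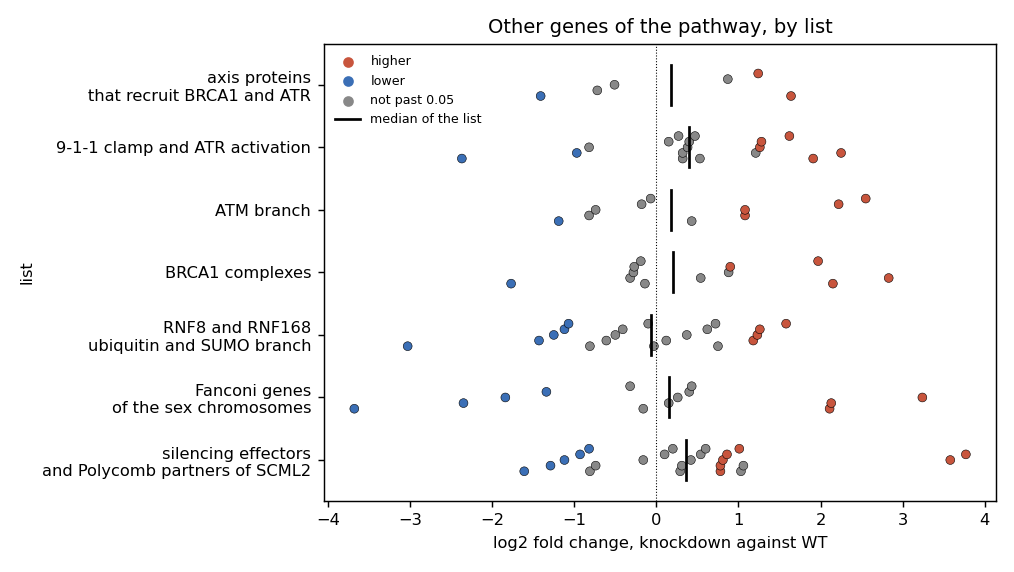
Log2 fold change of the 102 genes of the 7 pathway lists, knockdown against WT, 1 point per gene, red for higher, blue for lower and grey for not past an adjusted p of 0.05 (edgeR), with the median of each list as a bar. Each list holds genes that rose and genes that fell, and the list medians lie between -0.06 and 0.40.

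The plot of the pathway lists shows the same division in each. In the ubiquitin and SUMO list of RNF8 and RNF168, 4 of 20 rose (Usp3, Otub1, Rnf169 and the X-linked Ube2a) and 5 fell (L3mbtl1, Pias1, Pias2, Pias4 and Trip12). L3mbtl1 went from 15.5 and 10.9 CPM to 1.48 and 1.75 CPM. Usp3, which removes ubiquitin from histones, went from 19.4 and 21.8 CPM to 63.8 and 58.9 CPM. Pias2, a SUMO ligase, went from 622 and 530 CPM to 251 and 177 CPM, while the related Pias1 and Pias4 also fell. Rnf169, which competes with RNF168 for its marks, rose by 1.23 (SE 0.35). Its call was lost in 3 of 11 alternatives and that of Ube2a in 5. With scaling on synaptonemal complex and cohesin genes Rnf169 was at 0.49 (edgeR, adjusted p = 0.538) and Ube2a at 0.45 (adjusted p = 0.617). The ubiquitin-conjugating genes Ube2n (-0.61) and Ube2v2 (0.72) and the scaffold gene Herc2 (0.37) did not pass. Without WT replicate 1, 2 of the list were higher and 3 lower.

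Of 13 Fanconi pathway genes, whose products act on sex chromosomes at pachytene and in the repair of crosslinks, 3 rose (Fance, Fancf and the X-linked Fancb) and 4 fell (Usp1, Slx4, Fancg and Fancl). Usp1, the deubiquitinase of the pathway, went from 862 and 761 CPM to 62.2 and 64.1 CPM. Slx4, a nuclease scaffold, had 391 and 501 CPM in WT and 72.5 and 102 CPM after knockdown, and Fance rose from 1.91 and 2.88 CPM to 21.6 and 23.7 CPM. The call of Fancb was lost in 8 of its 10 alternatives, among them each that left out 1 library. Without WT replicate 1 a single gene of the list was higher. Fancd2, the target of the core ligase, did not pass (-0.16).

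Of 24 silencing effectors and Polycomb partners of SCML2, 7 rose (Cbx2, Cbx3, Kdm6a, Bmi1, Phc2, Rnf2 and Smarca5) and 5 fell (Ago4, Dot1l, Phc1, Cbx5 and Pcgf6). These counts rested on single libraries and on the scaling: 2 were higher and 3 lower without WT replicate 1, 3 higher and 1 lower without WT replicate 2, 11 higher and 2 lower when library totals alone set the scale, and 2 and 8 with scaling on synaptonemal complex and cohesin genes. Without knockdown replicate 1, and by the DESeq2 Wald test, 3 were higher. Cbx2, a Polycomb reader, went from 1.82 and 2.33 CPM to 26.4 and 30.1 CPM. Kdm6a, an X-linked demethylase gene, rose from 1.37 and 2.26 CPM to 15.4 and 28.0 CPM. Ago4, an Argonaute of the sex body, had 83.7 and 119 CPM in WT and 26.4 and 40.1 CPM after knockdown. The Polycomb ligase gene Rnf2, with Phc2 and Smarca5, had the smallest rises of the 7, from 0.78 to 0.81, and under the synaptonemal complex and cohesin scaling these were -0.09, -0.02 and -0.05. Among those of the 24 that did not pass were Ring1 (0.29), Setdb1 (0.31) and the Y-linked Zfy1 (1.03) and Zfy2 (0.54), which are close copies of each other. Usp7, the deubiquitinase that binds SCML2, was counted in the RNF8 and RNF168 list. It had a log2 fold change of -0.03 and did not pass.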

How the data were processed

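The authors deposited 1 table of raw read counts per gene for 4 libraries. Per the submitters' processing notes, the tools were DESeq2 (1.46.0), featureCounts (1.5.3), HISAT2 (2.2.1) and Trim Galore (0.6.10), with build mm39. The sources used here do not give the annotation, the strand setting or the treatment of reads in overlapping genes or several places. Columns were matched to samples by name. The members, lists and tests were chosen with earlier results of these data known.

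The test was the quasi-likelihood F test of edgeR 4.0.16 (R 4.3.3) for knockdown against WT. Of 36809 genes with a count, filterByExpr left 23594. Libraries were scaled by TMM, and p-values were adjusted over all tested genes by Benjamini-Hochberg at 0.05. The script was tested on simulated data in which few genes changed, equally up and down. Such data cannot show how the scaling behaves with as many changes as here. Standard errors are the log2 fold change over the square root of F. Fold changes are not centred on the median of all genes. All 10 members and Hsf5 are named. In each pathway list up to 3 called genes with the smallest p are named by rule (the other pathway genes were picked once their values were known), and for each called member its 2 most alike genes. Alternatives were DESeq2 size factors, library totals, scaling on synaptonemal complex and cohesin genes, no filter, a filter at a mean of 1 CPM, a Wald test in DESeq2 1.42.0, a block for the replicate number, leaving out each library, and, for ratios, coding length. Chromosomes came from RefSeq symbols (95.3% of tested genes) and lengths from GENCODE M21, both of GRCm38. Protein sequences were not analysed here. Floors cover counting error only.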

Additional observations from a re-analysis of the deposited data

How the results depend on the processing

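Scml2 and Rnf168 kept their direction and call under all 11 alternatives, Brca1 in 10 and Topbp1 in 8. Scaled on synaptonemal complex and cohesin genes, 1 member was higher and 2 were lower, 5 pathway genes were higher and 30 lower, and 2514 genes of the table were higher and 8752 lower. Over all genes the median was -0.92 there on the log2 scale, against -0.12 in the main analysis and 0.31 with library totals only. With library totals only 11 pathway genes were lower. Leaving out 1 library gave 2 to 3 members higher, 1 lower in each case, 16 to 27 pathway genes higher and 12 to 20 lower; the fewest of both were without WT replicate 1. Without 1 library the log2 fold change ran from -0.17 to 0.02 for Bard1, from -0.38 to 0.04 for Mdc1 and from -0.43 to 0.60 for Rnf8. Members whose direction turned did not pass in any such case. With library totals only the log2 fold change was 0.05 for Atr, 0.35 for Bard1 and 0.26 for Mdc1. Bard1 was at 0.02 and Rnf8 at -0.43 without knockdown replicate 1, Mdc1 was at 0.04 and Rnf8 at -0.06 without WT replicate 2, and Rnf8 was at -0.79 with scaling on synaptonemal complex and cohesin genes. That scaling also turned the pathway genes Rnf2 (-0.09), Phc2 (-0.02) and Smarca5 (-0.05). Apart from the change of scale, the cause was not tested.

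With coding length in place of transcript length, the mean ratio of Brca1 to Bard1 was 0.159 in WT and 0.579 in the knockdown, against 0.324 and 1.18, so that Brca1 stayed below Bard1 in both groups. The ratio of Atr to Topbp1 was 3.06 and 1.19 and that of Rnf168 to Rnf8 4.61 in WT. By construction the differences between the groups were the same.

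With the replicate number as a block, 7016 genes of the table were higher and 8351 lower, 35 pathway genes were higher and 26 lower, and the members' calls did not change. Of the 48 called pathway genes, Fancb lost its call there (2.18; edgeR, adjusted p = 0.0757). Same-numbered libraries deviated together (r = 0.32 across genes), but with 2 pairs and no shared source in the labels the numbers were not taken to pair the libraries. The floor of 3 counts is 0.104 CPM at most. For Atrip and H2ax it bounds the transcript only if their reads could be counted, which was not tested. The 2 libraries a group limit every test.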
